A study of Homo sapiens with 9 samples.

Results

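Focal adhesions are the contacts through which a cell grips the matrix, and caveolae are flask-shaped pits of its surface membrane. The 10 genes described here encode parts of both: PXN, ZYX, BCAR1, NEDD9, VCL, TLN1, PTK2, TNS3, CAV1 and CAV2. They were matched by gene symbol, and all 10 were found among the 58219 genes of the count tables. PTK2 encodes the kinase FAK and the caveolins are membrane coat proteins, so the adhesion adaptors proper are the other 7. Counts of RNA reads per gene were compared in PLC/PRF/5, a human hepatoma cell line. In 5 samples the cells carried YES with the gatekeeper mutation T348I, and in 4 samples they carried wild-type YES (WT), in each case stably expressed. YES belongs to the Src family of tyrosine kinases. All 9 samples, of either group, had received 100 nM of dasatinib, which blocks ABL and the Src kinases, and the cells' own YES1 gene was present in both groups. The titles spell the drug as dasatinib (3 T348I and 3 WT samples) or as Dasa (2 T348I samples and 1 WT sample). The labels say nothing of the vector, its promoter or whether each line was a clone or a pool.

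A focal adhesion is built in layers. Integrins bind the matrix outside the cell, talin and vinculin tie their tails to actin filaments, and zyxin gathers on the actin bundles under tension. Between these lies a signalling layer, in which FAK and Src family kinases phosphorylate the scaffolds paxillin and p130Cas on tyrosine, so that the scaffolds recruit Crk adaptors and the regulators of small GTPases that drive protrusion. Src family kinases also phosphorylate caveolin-1. Gatekeeper mutations of kinases such as Src and YES are known to weaken binding of dasatinib, which leaves the mutant kinase active in the presence of drug. RNA counts measure neither these phosphorylations nor protein.

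Upstream sequences are shown for 3 of the genes, PXN, BCAR1 and VCL, in which the searches below met a TEAD or AP-1 motif. Each stretch was chosen for the motif marked in it. PXN had the largest fold of the 10 genes, BCAR1 had a smaller one, and VCL did not pass the test. ZYX, with the second largest fold upward, is not shown. RefSeq (GRCh38.p14) gave 21 windows around transcription starts for 9 of the 10 genes, and the 250 bases before each start were searched on both strands. Only stretches outside annotated exons are printed, each 5′ to 3′ on the strand of the gene. The first PXN stretch (chr12:120265772-120265980, minus strand, -250 to -42 from the start) has the Sp1 motif GGGCGG, or its reverse complement, in capitals at 8 places, of which 2 share a base. The second PXN stretch (chr12:120250164-120250413, minus strand, -250 to -1) precedes a start inside the gene and has the reverse complement of the TEAD motif GGAATG in capitals. The BCAR1 stretch (chr16:75268054-75268257, minus strand, -250 to -47) has the AP-1 motif TGANTCA in capitals. The VCL stretch (chr10:73997866-73998113, plus strand, -250 to -3) precedes a start 2923 bases inside the annotated gene and has GGAATG in capitals. It also holds GGGCGG, beginning at -159, -132 and -50 from the start, left in lower case.
PXN first start: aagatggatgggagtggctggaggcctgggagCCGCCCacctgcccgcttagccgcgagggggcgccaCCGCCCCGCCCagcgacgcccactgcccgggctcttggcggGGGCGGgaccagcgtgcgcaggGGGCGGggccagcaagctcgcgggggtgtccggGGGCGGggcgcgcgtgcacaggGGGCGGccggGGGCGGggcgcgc
PXN inner start: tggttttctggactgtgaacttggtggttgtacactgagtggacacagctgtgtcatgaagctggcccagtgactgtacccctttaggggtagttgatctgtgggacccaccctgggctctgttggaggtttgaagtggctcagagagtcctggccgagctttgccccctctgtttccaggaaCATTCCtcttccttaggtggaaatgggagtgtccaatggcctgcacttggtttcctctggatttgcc
BCAR1: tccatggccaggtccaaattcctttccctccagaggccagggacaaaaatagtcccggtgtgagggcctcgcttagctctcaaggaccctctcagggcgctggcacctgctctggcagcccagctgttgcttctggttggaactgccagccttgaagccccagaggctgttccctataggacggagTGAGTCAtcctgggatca
VCL: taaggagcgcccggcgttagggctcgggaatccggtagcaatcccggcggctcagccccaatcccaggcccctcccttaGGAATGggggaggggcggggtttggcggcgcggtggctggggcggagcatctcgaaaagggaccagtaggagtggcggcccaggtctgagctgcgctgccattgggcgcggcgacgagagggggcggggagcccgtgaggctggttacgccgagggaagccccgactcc

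The same searches over all 35116 RefSeq windows give the frame for these matches. GGGCGG was held by 42.6% of all windows and by 15 of the 21 windows of these genes, with at least 1 window in each of the 9 genes. GGAATG was held by 11.9% of all windows and by 2 of the 21, the PXN and VCL windows shown. TGANTCA was held by 6.57% of all windows and by 1 of the 21, the BCAR1 window shown. The CArG box, the motif of serum response factor, was held by 1.16% of all windows and by 0 of the 21. A match describes the letters in a window and nothing more: PXN, called higher, and VCL, not called, both held the TEAD letters.

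Libraries held 10381142 to 15799059 gene reads in T348I samples and 10464731 to 14118614 in WT samples. YES1 itself stood at 748 ± 233 CPM (counts scaled to a common depth, SD, n = 5) in T348I samples and 353 ± 13.2 CPM (SD, n = 4) in WT samples, and reads of the introduced and the native gene cannot be told apart. The 2 spellings went with a difference between libraries, so the set was a term in the model: 15.2% to 17.0% of gene reads were mitochondrial in the Dasa set and 7.38% to 9.44% in the dasatinib set. All 9 markers on a hepatocyte and hepatoma list were detected, with a summed level of 5817 to 7548 CPM in T348I samples and 6512 to 9610 CPM in WT samples, where the single Dasa sample set the upper end and the dasatinib set reached 6820 CPM. Within each set, every T348I sample lay below every WT sample for ALB, APOA1, TF, FGB, AFP, GPC3 and HNF4A. The gap was narrow for some, as for FGB in the dasatinib set (1601 to 1669 against 1673 to 1741 CPM). SERPINA1 and APOB departed from this. SERPINA1 overlapped in the dasatinib set, at 1564 to 1727 CPM in T348I and 1487 to 1590 CPM in WT samples. In the Dasa set SERPINA1 was lower, at 1096 and 1148 CPM in T348I and 1579 CPM in the WT sample. Within the dasatinib set APOB was higher in T348I (2655 to 3439 CPM) than in WT samples (2408 to 2491 CPM). In the Dasa set APOB was lower in T348I (3112 and 3346 CPM) than in the WT sample (5311 CPM). TF was lower in T348I in both sets. It stood at 391 to 422 CPM in T348I and 607 to 659 CPM in WT samples of the dasatinib set. In the Dasa set TF stood at 313 and 327 CPM in T348I and 669 CPM in the WT sample. ALB and APOA1, which define mature hepatocytes, were low, at 1.16 to 3.36 and 1.43 to 3.36 CPM in T348I samples, and 3.62 to 4.65 and 6.82 to 8.85 CPM in WT samples. The summed markers of fibroblasts (6 genes) lay at 4.81 to 10.4 CPM in T348I and 3.69 to 8.93 CPM in WT samples, and those of endothelium (4 genes) at 1.8 to 3.93 CPM in T348I and 1.37 to 3.56 CPM in WT samples. Leukocyte markers (5 genes) summed to 1.63 to 2.19 CPM in T348I and 0.365 to 0.540 CPM in WT samples, with CD79A at 1.06 to 1.81 CPM in T348I and 0 to 0.182 CPM in WT samples and PTPRC at 0 in 4 of the 5 T348I samples and in all 4 WT samples. The part of other cells in the results was not tested, and in bulk RNA fewer cells of a type and less RNA per cell cannot be told apart.

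Of the 10 genes, 5 were higher and 1 was lower in T348I than in WT samples, and 4 did not pass the test. PXN, ZYX, CAV1, BCAR1 and CAV2 rose and TNS3 fell, while NEDD9, VCL, TLN1 and PTK2 were not called (edgeR quasi-likelihood test, Benjamini-Hochberg adjustment over all 14617 genes tested, threshold 0.05). Across all genes tested, 20.7% were called higher and 21.8% lower, 42.5% in either direction. In PXN, ZYX, BCAR1 and CAV1 every T348I sample lay above every WT sample, a pattern that 10.2% of all genes tested showed. The opposite pattern, every T348I sample below every WT sample, was seen in 0 of the 10 and in 9.41% of all genes tested. The labels do not state separate cultures, so the p-values speak only of sample spread, which can be technical.

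**Figure D1:**
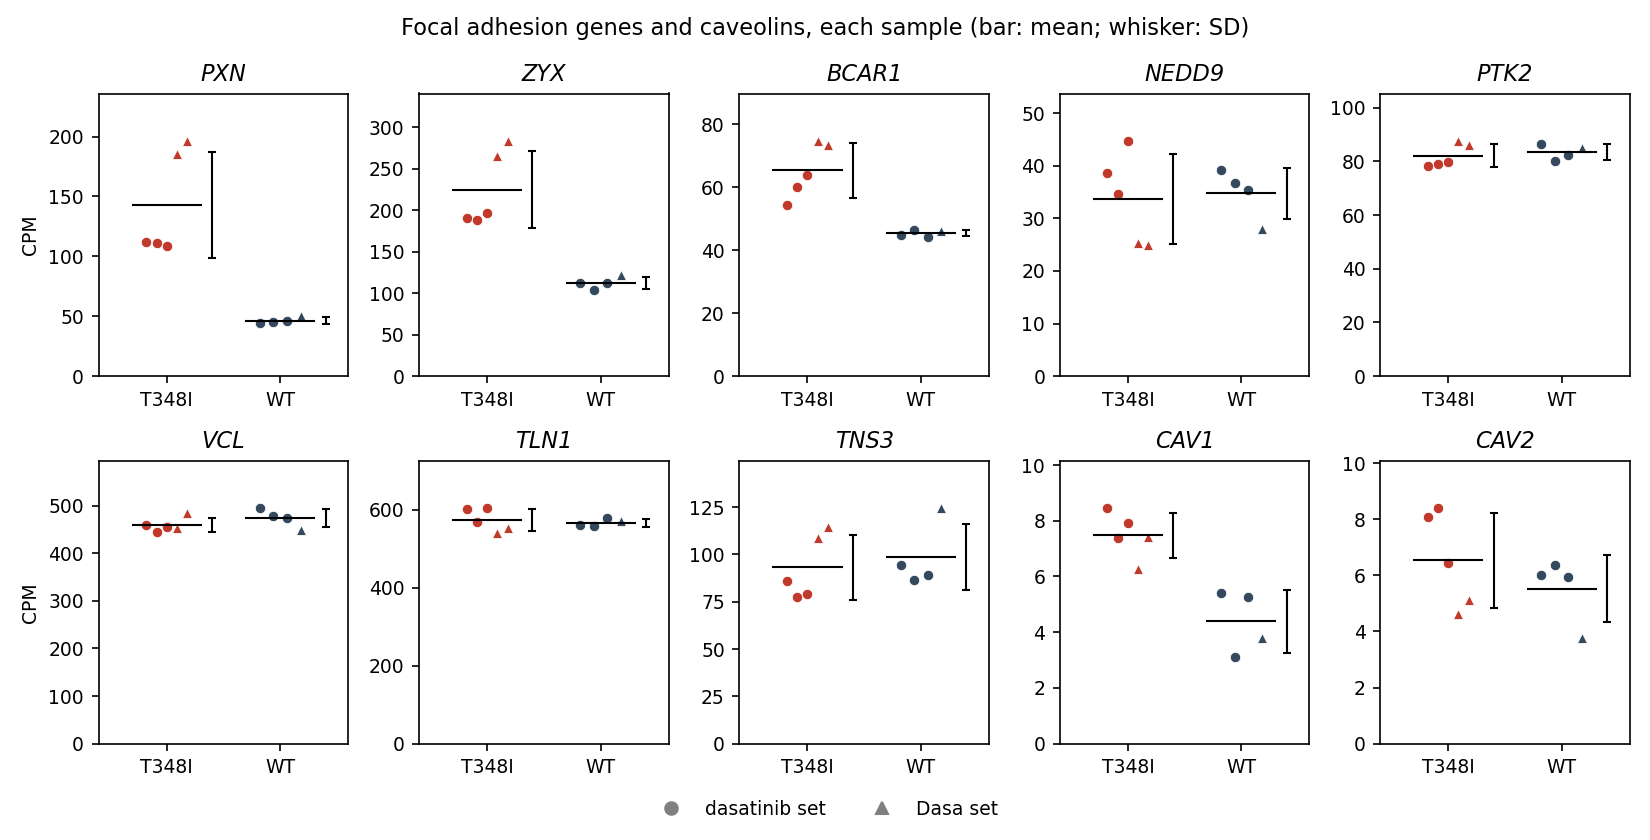
Level of each of the 10 genes in CPM, from 0, in every T348I sample (left) and WT sample (right), with circles for the dasatinib set and triangles for the Dasa set, a bar at the mean and a whisker for the SD (n = 5 and 4). In PXN, ZYX, BCAR1 and CAV1 all T348I points lie above all WT points, and in PXN, ZYX and BCAR1 the 2 T348I triangles lie above the 3 circles.

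Paxillin, encoded by PXN, is the scaffold that FAK and Src phosphorylate at new adhesions. PXN (ENSG00000089159.16, chromosome 12, 120210439 to 120265771, minus strand, GRCh38) stood at 112, 111 and 109 CPM in T348I dasatinib replicates 1 to 3 and at 186 and 197 CPM in T348I Dasa replicates 1 and 2, against 44.2, 45.2 and 45.7 CPM in WT dasatinib replicates 1 to 3 and 50.2 CPM in WT Dasa replicate 1. The lowest T348I sample was far above the highest WT sample, and the T348I samples themselves formed 2 levels by set. The fold was 2.81, or 1.49 in log2 (SE 0.0785, edgeR adjusted p = 1.14e-11). A call higher with at least this fold was made for 219 genes, 1.50% of those tested. The long noncoding gene PXN-AS1 lies on the opposite strand and shares 918 exon bases with PXN. Reads on that strand of PXN amounted to 7.52% to 10.7% of the sense reads in T348I and 21.6% to 38.9% in WT samples, and PXN-AS1 itself averaged 9.45 ± 1.15 CPM in T348I (SD, n = 5) and 10.3 ± 2.43 CPM in WT samples (SD, n = 4), a log2 fold of -0.18 that was not called (edgeR adjusted p = 0.158).

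Zyxin, encoded by ZYX, marks mature adhesions and actin bundles under load and recruits VASP. ZYX (ENSG00000159840.15, chromosome 7, 143381080 to 143391111, plus strand) stood at 190.2, 188 and 196 CPM in T348I dasatinib replicates and at 265 and 284 CPM in T348I Dasa replicates, against 113, 103 and 113 CPM in WT dasatinib replicates and 121 CPM in WT Dasa replicate 1. The groups did not overlap, and the T348I samples again fell into 2 levels by set. ZYX was higher by 0.92 in log2 (SE 0.0563, edgeR adjusted p = 1.29e-10).

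BCAR1 encodes p130Cas, the scaffold whose central domain Src family kinases phosphorylate to create docking sites for Crk. BCAR1 (ENSG00000050820.16, chromosome 16, 75228187 to 75268053, minus strand) stood at 54.3, 60.2 and 63.9 CPM in T348I dasatinib replicates and at 74.8 and 73.5 CPM in T348I Dasa replicates, against 44.9, 46.3 and 44.3 CPM in WT dasatinib replicates and 46.2 CPM in WT Dasa replicate 1. WT samples lay within a few CPM of each other while T348I samples were spread, all above them. This gave a log2 fold of 0.49 (SE 0.0568, edgeR adjusted p = 1.04e-06). BCAR1 shares 788 exon bases with AC009078.3 on the same strand, and reads from there can be given to neither gene. AC009078.3 itself held 5 to 25 reads in T348I and 4 to 16 reads in WT samples.

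NEDD9, the other Cas scaffold that could be tested in these cells, was not called. NEDD9 (ENSG00000111859.16, chromosome 6, 11183298 to 11382348, minus strand) stood at 38.5, 34.7 and 44.8 CPM in T348I dasatinib replicates and at 25.2 and 25.0 CPM in T348I Dasa replicates, against 39.2, 36.7 and 35.4 CPM in WT dasatinib replicates and 27.9 CPM in WT Dasa replicate 1. Groups overlapped, and the samples divided by set rather than by group. The log2 fold was 0.013 with a 95% interval of -0.13 to 0.16 (edgeR adjusted p = 0.894). Per length of exon, the BCAR1 level was 1.59 to 3.35 times the NEDD9 level in T348I samples and 1.29 to 1.87 times in WT samples, ranges that overlap. Within the dasatinib set the ratio was 1.59 to 1.96 in T348I and 1.29 to 1.43 in WT samples, and within the Dasa set it was 3.32 and 3.35 in T348I and 1.87 in the WT sample. The other Cas family members, EFS and CASS4, averaged 0.0128 and 0.228 CPM in T348I and 0.0169 and 0.125 CPM in WT samples and were too low to test.

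PTK2 encodes focal adhesion kinase (FAK), the partner of Src at adhesions. PTK2 (ENSG00000169398.19, chromosome 8, 140657900 to 141002216, minus strand) stood at 78.4, 79.0 and 79.7 CPM in T348I dasatinib replicates and at 87.8 and 86.0 CPM in T348I Dasa replicates, against 86.6, 80.1 and 82.4 CPM in WT dasatinib replicates and 85.2 CPM in WT Dasa replicate 1. Within the dasatinib set the T348I samples lay just below the WT samples, and over both sets the groups overlapped. The log2 fold was -0.040 with a 95% interval of -0.12 to 0.043 (edgeR adjusted p = 0.444). PTK2B, which encodes the related kinase PYK2, averaged 3.98 ± 0.770 CPM in T348I (SD, n = 5) and 4.83 ± 1.79 CPM in WT samples (SD, n = 4) and was called lower by 0.37 on the log2 scale (edgeR adjusted p = 0.0363). That call was lost under 10 of 17 alternatives, and within the dasatinib set alone the log2 fold was -0.17 (edgeR adjusted p = 0.478).

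TLN1 and VCL, the core of the mechanical link between integrin and actin, were not called. TLN1 encodes talin, which binds and activates integrins. TLN1 (ENSG00000137076.20, chromosome 9, 35696948 to 35732395, minus strand) stood at 603, 569 and 605 CPM in T348I dasatinib replicates and at 541 and 555 CPM in T348I Dasa replicates, against 560.3, 558 and 578 CPM in WT dasatinib replicates and 573 CPM in WT Dasa replicate 1. Its groups overlapped in both sets together, and the log2 fold was 0.026 with a 95% interval of -0.055 to 0.11 (edgeR adjusted p = 0.62). TLN2, the second talin gene, averaged 17.7 ± 2.60 CPM in T348I (SD, n = 5) and 17.0 ± 4.69 CPM in WT samples (SD, n = 4) and was not called either, with a log2 fold of -0.02 (edgeR adjusted p = 0.837).

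Vinculin, encoded by VCL, is recruited to stretched talin and strengthens its hold on actin. VCL (ENSG00000035403.17, chromosome 10, 73995193 to 74121363, plus strand) stood at 459, 445 and 454 CPM in T348I dasatinib replicates and at 453 and 485 CPM in T348I Dasa replicates, against 495, 477 and 474 CPM in WT dasatinib replicates and 449 CPM in WT Dasa replicate 1. T348I samples lay below WT samples in the dasatinib set and above the WT sample in the Dasa set. Over all samples the log2 fold was -0.044 with a 95% interval of -0.13 to 0.039 (edgeR adjusted p = 0.397). In the dasatinib set alone VCL was called lower, by 0.086 on the log2 scale (edgeR adjusted p = 0.0484). VCL shares 1109 exon bases with AP3M1 on the opposite strand, and opposite-strand reads came to 1.21% to 1.73% of the VCL sense reads in T348I and 1.01% to 1.57% in WT samples.

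TNS3 encodes tensin-3, a Src substrate that links integrin tails to actin in the more central adhesions. TNS3 (ENSG00000136205.16, chromosome 7, 47275154 to 47582558, minus strand) stood at 85.9, 77.6 and 79.2 CPM in T348I dasatinib replicates and at 109 and 114 CPM in T348I Dasa replicates, against 94.3, 86.3 and 89.2 CPM in WT dasatinib replicates and 124 CPM in WT Dasa replicate 1. Within each set every T348I sample was below every WT sample, but the Dasa samples were higher in both groups, so the groups overlapped over both sets. The log2 fold was -0.16 (SE 0.0419, edgeR adjusted p = 0.00481), a small change that was not called without the set term (-0.08, edgeR adjusted p = 0.757). TNS4, whose product cten lacks the actin-binding part of tensins, averaged 4.82 ± 2.44 CPM in T348I (SD, n = 5) and 0.291 ± 0.0746 CPM in WT samples (SD, n = 4), higher by 3.75 on the log2 scale (edgeR adjusted p = 5.44e-10). TNS2 was called higher by 0.29 (edgeR adjusted p = 0.0176), a call lost under 4 of 17 alternatives, among them the dasatinib set alone (0.26, edgeR adjusted p = 0.0909). TNS1 had a log2 fold of -0.31 and was not called (edgeR adjusted p = 0.0807).

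Caveolin-1, encoded by CAV1, forms the coat of caveolae together with the cavins and is itself a substrate of Src. CAV1 (ENSG00000105974.11, chromosome 7, 116524785 to 116561184, plus strand) stood at 8.45, 7.37 and 7.91 CPM in T348I dasatinib replicates and at 6.26 and 7.41 CPM in T348I Dasa replicates, against 5.40, 3.10 and 5.27 CPM in WT dasatinib replicates and 3.78 CPM in WT Dasa replicate 1. Each T348I sample lay above each WT sample, at a low level that rested on 88 to 115 reads in T348I and 34 to 79 reads in WT libraries. CAV1 was higher by 0.77 in log2 (SE 0.139, edgeR adjusted p = 0.000172).

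CAV2 encodes caveolin-2, which joins caveolin-1 in the coat. The gene lies next to CAV1, with 16243 bases between them. CAV2 (ENSG00000105971.14, chromosome 7, 116287380 to 116508541, plus strand) stood at 8.07, 8.40 and 6.44 CPM in T348I dasatinib replicates and at 4.62 and 5.14 CPM in T348I Dasa replicates, against 6.01, 6.38 and 5.95 CPM in WT dasatinib replicates and 3.78 CPM in WT Dasa replicate 1. T348I samples lay above WT samples within each set but overlapped with them over both. For CAV2 the log2 fold was 0.34 (SE 0.115, edgeR adjusted p = 0.0224). This call was lost under 5 of 17 alternatives, among them DESeq2 (0.34, adjusted p = 0.113), the fit without WT dasatinib replicate 3 (0.33, edgeR adjusted p = 0.0555) and the fit without T348I dasatinib replicate 2 (0.28, edgeR adjusted p = 0.0960). Per length of exon, CAV1 stood at 1.49 to 2.45 times the level of CAV2 in T348I samples and at 0.824 to 1.70 times in WT samples, ranges that overlap. The muscle caveolin CAV3 had too few reads to test.

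The folds of PXN and ZYX differed between the 2 sets. For PXN the log2 fold was 1.93 in the Dasa set and 1.29 in the dasatinib set, and the difference of 0.63 (SE 0.0837) passed the edgeR interaction test (adjusted p = 1.42e-06). For ZYX the log2 fold was 1.18 in the Dasa set and 0.80 in the dasatinib set, and the difference of 0.38 (SE 0.0735) passed as well (adjusted p = 0.000635, edgeR). Of all genes tested, 7.33% passed this test. BCAR1 leaned the same way, with log2 folds of 0.68 in the Dasa set and 0.40 in the dasatinib set, but its difference of 0.28 was not called (edgeR adjusted p = 0.0741) except without T348I dasatinib replicate 3 (0.33, edgeR adjusted p = 0.0336). YES1 transcript showed the same order of sets, at 972 and 1030 CPM in the Dasa set and 552 to 604 CPM in the dasatinib set of T348I samples, against 368 CPM in the Dasa set and 340.1 to 361 CPM in the dasatinib set of WT samples. Its log2 folds were 1.45 in the Dasa set and 0.73 in the dasatinib set, a difference of 0.71 (edgeR adjusted p = 2.3e-09). The part of the YES1 level in the differences of PXN and ZYX was not tested. Genes of the pathway lists below passed the interaction test too. Log2 folds were larger in the Dasa than in the dasatinib set for PTPN12 (1.37 against 0.78) and EZR (1.05 against 0.57). The same held for VASP (1.02 against 0.68), SHC1 (0.90 against 0.60), PACSIN3 (0.86 against 0.41) and ACTN1 (0.60 against 0.26), among others. The difference ran the other way for SH2D3C (-2.21 against -0.26), GRB7 (-0.63 against -0.0017) and SH3PXD2A (-0.12 against 0.13), named after their values were seen. The Dasa set holds 1 WT sample, which the test takes to vary like the other groups.

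**Figure D2:**
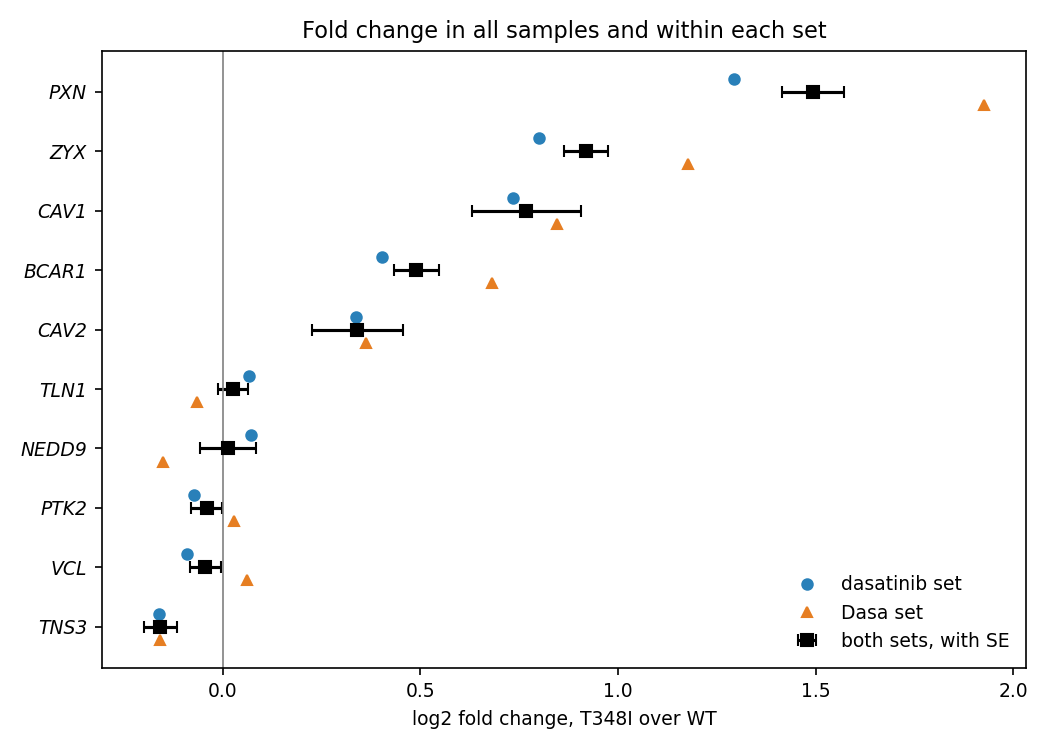
Log2 fold of T348I over WT for each of the 10 genes in all samples (square, whisker for the standard error), in the dasatinib set (circle) and in the Dasa set (triangle). The triangle lies right of the circle by 0.63 for PXN and 0.38 for ZYX, while for TNS3, CAV1 and CAV2 the sets lie within the whiskers of the square.

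In the additive model, the set term was called for 6 of the 10 genes and for 58.6% of all genes tested. Levels were higher in the Dasa than in the dasatinib set for PXN (log2 0.60), TNS3 (0.47), ZYX (0.39) and BCAR1 (0.22). They were lower for CAV2 (-0.67) and NEDD9 (-0.55), and each was called by edgeR. This term averages over T348I and WT samples, and for PXN, ZYX and BCAR1 the T348I samples differed more between sets. PXN stood at 109 to 112 and 186 to 197 CPM in T348I dasatinib and Dasa samples. In WT samples it stood at 44.2 to 45.7 and 50.2 CPM. For BCAR1 the WT Dasa sample, at 46.2 CPM, lay within the WT dasatinib samples, at 44.3 to 46.3 CPM. For NEDD9, CAV2 and TNS3 the log2 difference between sets was larger in size than that of T348I over WT, a comparison of estimates with no test. What the spelling stands for is not given in the labels, so its source was not tested.

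Levels of different genes were compared per kilobase of exon, as mean CPM per kb. In T348I samples the order ran from ZYX (64.5 ± 13.2) and TLN1 (57.0 ± 2.84) through VCL (46.0 ± 1.54) and PXN (19.1 ± 5.94) to TNS3 (7.90 ± 1.46), BCAR1 (7.12 ± 0.955), PTK2 (5.98 ± 0.317), NEDD9 (3.25 ± 0.828), CAV1 (1.83 ± 0.199) and CAV2 (0.944 ± 0.244), with SD and n = 5. The neighbours ZYX and TLN1, TNS3 and BCAR1, and BCAR1 and PTK2 had overlapping ranges. In WT samples the order was TLN1 (56.3 ± 0.985), VCL (47.4 ± 1.88), ZYX (32.3 ± 2.11), TNS3 (8.36 ± 1.49), PXN (6.21 ± 0.357), PTK2 (6.08 ± 0.210), BCAR1 (4.95 ± 0.108), NEDD9 (3.36 ± 0.469), CAV1 (1.07 ± 0.276) and CAV2 (0.799 ± 0.171), with SD and n = 4, and PXN with PTK2 and CAV1 with CAV2 overlapped. The place of ZYX above TLN1 by its mean came from the Dasa set, where ZYX lay at 76.2 and 81.5 and TLN1 at 53.7 and 55.1 CPM per kb in T348I samples. In the dasatinib set ZYX lay at 53.9 to 56.4 and TLN1 at 56.5 to 60.0 CPM per kb in T348I samples. In WT samples of either set ZYX was below both TLN1 and VCL. Within single samples, the PXN level was 0.320 to 0.549 of the VCL level in T348I and 0.120 to 0.150 in WT samples, and the ZYX level was 1.19 to 1.68 of the VCL level in T348I and 0.622 to 0.776 in WT samples. Both ratios set an adaptor against a structural link measured in the same library, so the scaling between libraries does not enter them. Neither overlapped between groups. PXN and ZYX already lay apart and VCL was not called, so the ratios restate the folds of PXN and ZYX.

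**Figure D3:**
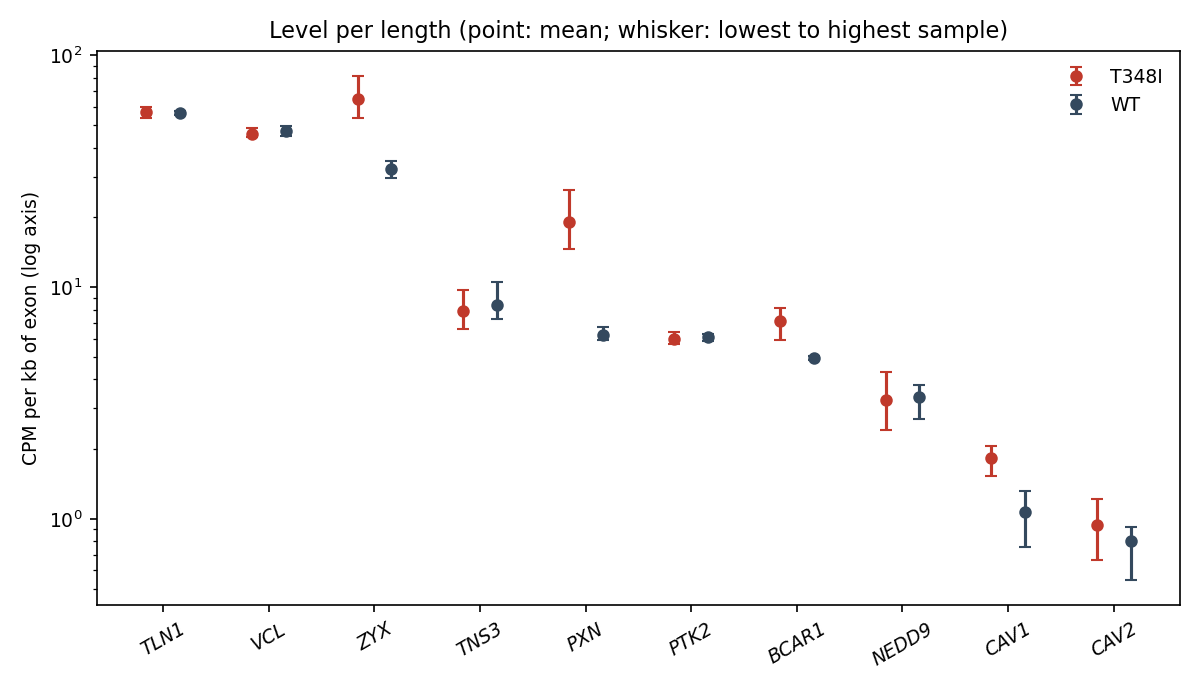
Mean level per length in CPM per kb of exon on a log axis for each gene, T348I left of WT in each pair, with whiskers from the lowest to the highest sample (n = 5 and 4). ZYX and PXN lie higher in T348I (64.5 and 19.1 against 32.3 and 6.21), while TLN1 and VCL lie at about the same height in both groups (57.0 and 46.0 against 56.3 and 47.4).

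The wider pathway was followed in 5 lists of genes that work with these 10, 68 genes in all, of which 63 were tested, 23 called higher (36.5%), 11 called lower (17.5%) and 29 not called, beside 20.7% higher and 21.8% lower among all genes tested. The median log2 fold was 0.18 for the 10 genes and 0.05 for the 63, beside -0.0077 for all genes tested. Among partners of Cas and FAK signalling, 5 of 15 tested genes were higher and 3 lower (median log2 fold 0.05). PTPN12, the phosphatase PTP-PEST that removes phosphate from p130Cas, averaged 202 ± 30.4 CPM in T348I (SD, n = 5) and 101 ± 9.39 CPM in WT samples (SD, n = 4), a log2 fold of 0.96 (edgeR adjusted p = 5.53e-09). BCAR3, which binds p130Cas and promotes its signalling, had a log2 fold of 0.97 at a low level of 5.82 ± 0.429 CPM in T348I (SD, n = 5) and 2.93 ± 0.613 CPM in WT samples (SD, n = 4; edgeR adjusted p = 2.45e-05). The adaptor CRKL, which docks on phosphorylated Cas and paxillin, rose by 0.33, and the Arf GTPase-activating protein ASAP1 rose by 0.28. GIT1, a paxillin-binding scaffold, rose by 0.22, while DOCK1, the Rac activator downstream of Crk, fell by 0.19 and SH2D3C, a relative of BCAR3, fell by 0.73, all by edgeR. These last 3 were named after their values were seen, to complete the counts. The SH2D3C call was lost under 9 of 17 alternatives, with a log2 fold of -0.25 in the dasatinib set alone (edgeR adjusted p = 0.461).

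Among the linkers from integrin to actin, 6 of 21 tested genes were higher (28.6%) and 7 lower (33.3%). These shares stand beside 20.7% higher and 21.8% lower among all genes tested. The median log2 fold of the linkers was -0.03. FERMT1, which encodes the integrin activator kindlin-1, averaged 57.0 ± 22.0 CPM in T348I (SD, n = 5) and 4.71 ± 0.360 CPM in WT samples (SD, n = 4), a log2 fold of 3.44 (edgeR adjusted p = 5.19e-15). In T348I samples it stood at 39.4 to 43.1 CPM in the dasatinib set and at 76.9 and 84.7 CPM in the Dasa set, higher in the Dasa set, as for PXN and ZYX. VASP, the factor for actin filament growth that zyxin recruits, averaged 224 ± 18.6 CPM in T348I (SD, n = 5) and 129 ± 6.38 CPM in WT samples (SD, n = 4), a log2 fold of 0.78 (edgeR adjusted p = 3.16e-10). ACTN1, the actin crosslinker alpha-actinin-1 and a partner of zyxin, rose by 0.37 on the log2 scale (edgeR adjusted p = 5.64e-06). The 7 genes called lower, named after their values were seen, include LIMS1, LIMS2, PARVB and RSU1, whose products PINCH-1, PINCH-2, beta-parvin and RSU1 assemble with integrin-linked kinase. LIMS2 fell by 0.50 (edgeR adjusted p = 0.00647), PARVB by 0.43 (edgeR adjusted p = 0.00640), RSU1 by 0.13 (edgeR adjusted p = 0.00631) and LIMS1 by 0.13 (edgeR adjusted p = 0.00864). LIMS1 shares sequence with close copies, LIMS3 and LIMS4, so its count is uncertain. The others were SORBS3, which encodes the vinculin-binding protein vinexin and fell by 0.30, EVL, a relative of VASP, which fell by 0.27, and KANK1, a talin-binding protein, which fell by 0.20, each called by edgeR. In all 7 the groups overlapped, and all 7 calls were lost without the set term, with log2 folds of -0.56 (PARVB) to -0.15 (KANK1). The KANK1 call was also lost in the dasatinib set alone (-0.13, edgeR adjusted p = 0.0757) and without WT Dasa replicate 1 (-0.13, edgeR adjusted p = 0.0709).

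A further list held relatives of paxillin, zyxin and the Ajuba LIM proteins. Of 7 tested genes, 2 were higher (28.6%), 0 lower and 5 not called, with a median log2 fold of 0.02. Among all genes tested, 20.7% were called higher and 21.8% lower. FBLIM1, the zyxin relative migfilin, rose by 0.37 (edgeR adjusted p = 0.000208). WTIP, of the Ajuba family, was called higher by 0.21 (edgeR adjusted p = 0.0194), a call lost under 5 of 17 alternatives, among them the dasatinib set alone (0.14, edgeR adjusted p = 0.179). LPXN, the paxillin relative leupaxin, averaged 1.82 ± 0.331 CPM in T348I (SD, n = 5) and 2.60 ± 0.538 CPM in WT samples (SD, n = 4), a log2 fold of -0.49 that was not called (edgeR adjusted p = 0.0526) but was called under 4 of 17 alternatives. LIMD1, also of the Ajuba family, had a log2 fold of -0.12 and was not called (edgeR adjusted p = 0.0631), except under 3 of 17 alternatives. TGFB1I1, which encodes the paxillin relative Hic-5, averaged 0.0136 CPM in T348I and 0.0358 CPM in WT samples and was too low to test.

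Among caveola components beside the caveolins, 4 of 6 tested genes rose (66.7%), 0 fell and 2 were not called. The median log2 fold was 0.51. Of all genes tested, 20.7% were called higher and 21.8% lower. CAVIN1, the cavin without which caveolae do not form, stood at 229.5, 252 and 239 CPM in T348I dasatinib replicates and at 276 and 289 CPM in T348I Dasa replicates, against 138, 134 and 130.0 CPM in WT dasatinib replicates and 142 CPM in WT Dasa replicate 1. Its groups were well apart, and the log2 fold was 0.89 (SE 0.0418, edgeR adjusted p = 2.09e-12). EHD2, the ATPase that holds caveolae at the membrane, rose by 0.74 (edgeR adjusted p = 3.16e-06), PACSIN3, a membrane-bending protein, by 0.55 (edgeR adjusted p = 2.19e-06) and CAVIN2 by 0.48 (edgeR adjusted p = 5.78e-08). In each of these 4 genes all T348I samples lay above all WT samples, as in 10.2% of all genes tested and in 48.3% of the 3029 called higher, and the 4 had been named by their small p.

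**Figure D4:**
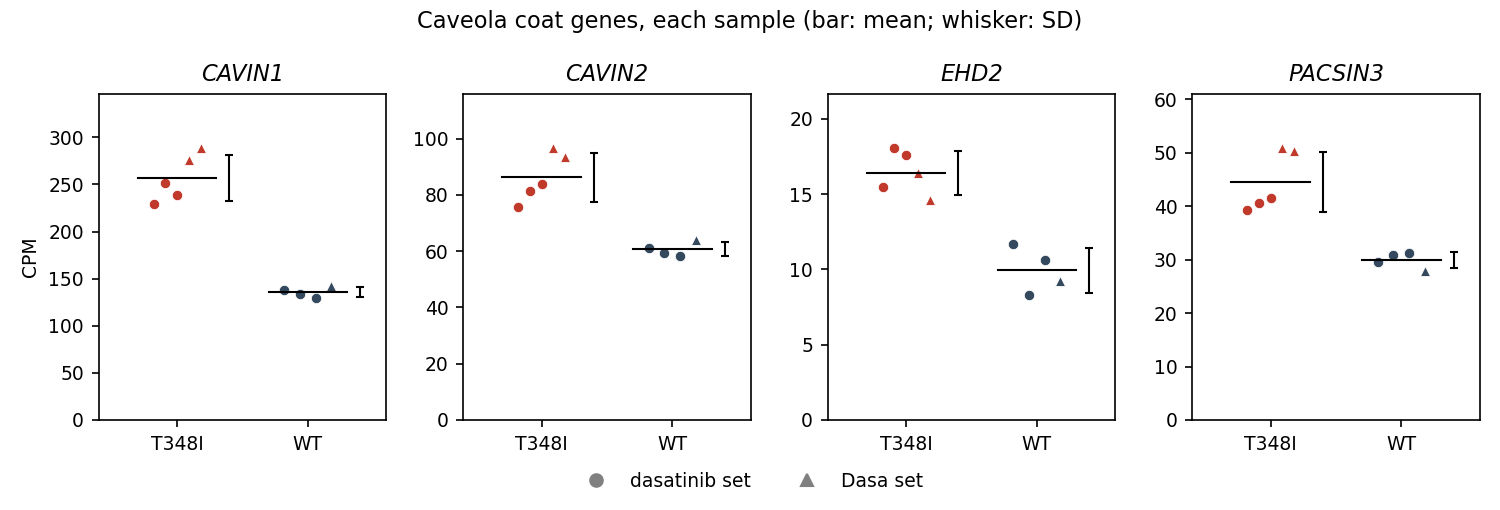
Level in CPM, from 0, of the 4 caveola genes called higher, in every T348I sample (left) and WT sample (right), with circles for the dasatinib set, triangles for the Dasa set, a bar at the mean and a whisker for the SD (n = 5 and 4). The T348I points of CAVIN1 lie at 229.5 to 289 CPM and its WT points at 130.0 to 142 CPM, and in none of the panels do the groups overlap.

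Of 14 other known substrates of Src family kinases, all tested, 6 were higher (42.9%), 1 lower (7.14%) and 7 not called. For all genes tested the shares were 20.7% higher and 21.8% lower. The median log2 fold of the substrates was 0.10. EZR, which encodes the membrane-actin linker ezrin, averaged 550.1 ± 41.6 CPM in T348I (SD, n = 5) and 335 ± 32.1 CPM in WT samples (SD, n = 4), a log2 fold of 0.71 (edgeR adjusted p = 2.25e-08). SHC1, the adaptor between tyrosine kinases and Ras, averaged 434 ± 87.7 CPM in T348I (SD, n = 5) and 254 ± 20.5 CPM in WT samples (SD, n = 4), a log2 fold of 0.69 (edgeR adjusted p = 7.59e-10). The ubiquitin ligase CBL rose by 0.28 and the membrane-binding annexin ANXA2 by 0.27, both by edgeR. GAB1, a docking protein of receptor kinases named after its values were seen, fell by 0.59 (edgeR adjusted p = 0.000684). Without the set term, calls were lost for FBLIM1 (log2 fold 0.49), ASAP1 (0.36), ANXA2 (0.24) and DOCK1 (-0.18), at folds similar to or larger than those given.

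Over the 9 samples, the genes most like PXN in log2 CPM among 10126 genes were MIDN (Pearson r = 0.999), PLAUR (0.998) and EPAS1 (0.998). PLAUR, for example, stood at 21.6 to 23.5 CPM in T348I dasatinib replicates and at 49.7 and 51.5 CPM in T348I Dasa replicates, against 4.93 to 5.40 CPM in WT dasatinib replicates and 6.51 CPM in WT Dasa replicate 1. The genes most like TNS3 were TARBP1 (r = 0.991), ARHGAP29 (0.986) and ARHGEF17 (0.984), which were also highest in the Dasa samples of both groups. These correlations describe samples that share groups, sets and library scaling, and carry no test.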

How the data were processed

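PolyA RNA of 9 samples was sequenced with a stranded KAPA kit after TRIzol and column purification, per the labels' protocols. The authors deposited raw counts of reads per gene, 1 table per sample, for which the submitters' processing notes list STAR 2.5.1b, Trimmomatic 0.35, CASAVA 1.8.2 and build GRCh38. Their annotation release is not given in the sources used here. The sense-strand counts were used, and opposite-strand gene reads came to 5.48% to 5.91% of them. Rows that name no gene (22.2% to 29.8% of reads) were left out. Depth was 10381142 to 15799059 gene reads per sample. No 2 libraries of a group and set were duplicates (chi-square per gene 1.45 to 2.88).

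Of the 58219 identifiers, 55050 were in GENCODE 29 with the same version, the 10 genes among them. Exon lengths and coordinates come from there, and promoter windows from RefSeq. In R 4.3.3, edgeR 4.0.16 tested T348I over WT with the quasi-likelihood F-test after filterByExpr (minimum count 10) and TMM, with set and group as terms, Benjamini-Hochberg adjustment over all genes and a threshold of 0.05. An interaction model tested whether folds differ between sets. Standard errors derive from the fold and the F statistic. On simulated data for this comparison (14408 genes tested), 58% of 50 genes changed 1.2-fold were recovered, and of 50 each at folds of 1.5, 2 and 4 the shares were 88%, 94% and 88%. Of 173 calls 9 were false. In the simulation only these genes were changed and no fold differed between sets. In the data 42.5% of genes were called, so these shares need not hold there. Alternatives were 2 scalings, DESeq2 1.42.0, no filter, no set term, a replicate block, the dasatinib set alone, counts without regard to strand and leaving out each library.

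The 10 genes and the lists were chosen with earlier results of these data known. Named beside the 10 were up to 4 tested genes of each list with the smallest p, the close relatives of the 10 and YES1. For PXN and TNS3 the 3 genes of most similar pattern were also named (mean log2 CPM of at least 3, pseudocount 0.5 CPM). Other list genes were named after their values were seen: GRB7, SH3PXD2A, GIT1, DOCK1, SH2D3C, GAB1 and the linkers called lower. PXN-AS1, AC009078.3 and AP3M1 were named because they share exon bases with PXN, BCAR1 and VCL.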

Additional observations from a re-analysis of the deposited data

Results flagged for a closer look

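The lowest WT sample of CAV2, Dasa replicate 1 at 3.78 CPM, lay farther from the other WT samples than Dixon's 95% limit allows. It was 1 of 20 groups of samples checked for an outlying value, and chance alone marks about 1 in 20. It is also the single WT sample of the Dasa set, in which CAV2 was lower in T348I samples as well.

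The log2 fold of PXN was larger in the Dasa set than in the dasatinib set by 0.632, and that of ZYX by 0.376, both called by the edgeR interaction test. The difference of PXN kept within 0.513 to 0.669 and that of ZYX within 0.323 to 0.420 over 12 alternatives. DESeq2 and the replicate block were not among these. All 12 kept the single WT Dasa sample, so they cannot show how far the differences rest on it. YES1 transcript differed between the sets in the same direction, and its part was not tested.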

How the results depend on the processing

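Across 17 alternatives, the log2 folds of PXN (1.30 to 1.62), ZYX (0.81 to 0.998), CAV1 (0.65 to 0.86) and BCAR1 (0.41 to 0.54) stayed called higher. Without the set term 2350 genes were called in place of 6212, and 0 of the 10 genes was called lower. In the dasatinib set alone 2 of the 10 were called lower, TNS3 and VCL. CAV2 lost its call without the set term (0.24, edgeR adjusted p = 0.511) and with the replicate block (0.31, edgeR adjusted p = 0.0612), beside the 3 alternatives given above. The estimate for NEDD9 lay between -0.068 and 0.078, and it was never called. Counts without regard to strand gave PXN a log2 fold of 1.31. Leaving out 1 library at a time called 5131 to 5925 genes, with 4 to 5 of the 10 higher, 1 lower, and 2 to 3 with a fold that differed between sets. Same-numbered samples of the dasatinib set did not deviate together (correlations 0.0123, -0.0528 and 0.0157 over 14168 genes). These values cannot show whether same-numbered samples were prepared together, since a small shared effect would be lost in the spread between samples. With the replicate block 5372 genes were called, 4 of the 10 higher and 1 lower. Among the list genes named, 547 of the estimates under alternatives kept their side of the threshold, 41 lost a call and 7 gained one. The interaction could not be fitted without WT Dasa replicate 1. CAV1 and CAV2 rested on 34 to 131 reads per library, so their folds are the least precise of the 10.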
